A study of Mus musculus with 8 samples.

Results

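The interferon-induced chemokines Cxcl9, Cxcl10 and Cxcl11, the chemokine Ccl5 and the receptor Cxcr3 were examined in mouse lung. They are 5 of the 18191 genes that had a probe set with 1 gene symbol. They were measured by 7 probe sets, 2 each for Cxcl9 and Cxcl11 and 1 each for the others, and all 7 passed the filter on dim signals. Where a gene had a pair of probe sets, the one with the higher mean over the 8 arrays gave the main value, and the other is given beside it. Main probe sets were thus chosen by their mean level, for example -0.71 for Cxcl9, and not by a difference between groups. The family itself was selected on earlier results of these data, in which Cxcl10 and Ccl5 were lower with SWCNT on day 1, so their levels describe that pattern and are no independent evidence of it. The study asked how single-walled carbon nanotubes (SWCNT) change gene expression in the lung in an acute phase and in a later one.

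All animals were male ICR mice, an outbred stock, aged 5 to 6 weeks. Under pentobarbital, the trachea was exposed through a cut in the neck skin and a single instillation was given. The PF68 groups received Pluronic F-68, a surfactant used as the solvent control. The SWCNT groups received 0.5 mg of SWCNT in 50 µl of 0.1% Pluronic F-68. Lungs (right side, lobe 1) were taken on day 1 or day 7, which gave 4 groups of 2 arrays. Every mouse was thus anaesthetised, operated on and instilled, and no untreated group was analysed here. The labels call the arrays biological replicates without naming animals, so every p-value rests on array-to-array spread, which may be technical.

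Chemokines are small secreted proteins that draw leukocytes along a gradient. CXCL9, CXCL10 and CXCL11 act on the receptor CXCR3, which is carried by activated T cells and natural killer (NK) cells, while CCL5 acts on other receptors, among them CCR1 and CCR3. Interferon gamma induces all of the CXCR3 ligands, type I interferon also induces Cxcl10 and Cxcl11, and NF-kappaB contributes to Cxcl9, Cxcl10 and Ccl5.

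The promoters of Cxcl10 and Cxcl9 are shown because both genes are regulated by interferon and NF-kappaB and because they lie close together on chromosome 5. The sequences come from RefSeq (GRCm38.p6, the C57BL/6J reference, not the ICR mice studied) and run from 250 bases before to 50 after the gene's start. Capitals mark matches to an interferon-stimulated response element (GAAA, any 2 bases, GAAA) or a kappaB site (GGGNNTTCC), searched on both strands. Promoters were at hand for 3 of the 5 genes: Cxcl9, Cxcl10 and Cxcr3.
Cxcl10, chr5:92348840-92349139, minus strand: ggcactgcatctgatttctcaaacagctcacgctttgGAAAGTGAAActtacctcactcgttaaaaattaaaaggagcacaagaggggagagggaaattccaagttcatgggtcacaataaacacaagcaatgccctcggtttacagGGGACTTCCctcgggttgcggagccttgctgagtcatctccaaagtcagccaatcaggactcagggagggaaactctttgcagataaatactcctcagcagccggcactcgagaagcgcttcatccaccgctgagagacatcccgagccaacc
Cxcl9, chr5:92328030-92328329, minus strand: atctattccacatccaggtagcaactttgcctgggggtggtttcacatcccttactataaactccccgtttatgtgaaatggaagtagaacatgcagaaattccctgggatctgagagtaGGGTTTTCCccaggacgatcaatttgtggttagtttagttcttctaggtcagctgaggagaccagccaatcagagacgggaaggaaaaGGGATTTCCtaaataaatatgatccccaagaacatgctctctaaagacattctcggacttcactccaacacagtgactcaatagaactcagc
The Cxcl10 window held 1 match to the interferon-stimulated response element, first base at -213, and 1 to the kappaB pattern, at -103. The Cxcl9 window held 2 matches to the kappaB pattern, at -130 and -42, and none to the response element. Only the spellings given were searched, so kappaB sites with another spacing are not counted here or in the shares below. The Cxcr3 window, on the X chromosome, held neither motif. The gamma-activated site (TTCNNNGAA), was matched in none of these windows. The matches do not overlap one another. Among 32851 promoters of the same length, 3.44% held the response element, 8.3% the gamma-activated site and 5.82% the kappaB site. A match describes letters in the reference and no binding was measured.

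The arrays were single-colour Affymetrix arrays. The deposited values are read as log2 signals after quantile-type normalization, with a median of -0.628 on every array, and levels are given on that scale. Arrays of a group correlated at 0.914 to 0.94 over all probe sets, and arrays of different groups at 0.891 to 0.931. Markers of the labelled tissue were present: the mean level of 9 lung epithelial genes was 6.81 to 7.08 in the 4 groups, and that of 7 endothelial genes 3.81 to 4.41. The SWCNT day 1 arrays stood apart in their content of other tissue. The mean level of the skeletal muscle list was 2.56 to 2.58 there and between -1.39 and -1.12 on the other 6 arrays, and 8 of 9 tested muscle genes were higher with SWCNT on day 1. Of the fat and squamous epithelial lists, 3 of 3 and 3 of 5 tested genes were also higher. Myh1, Tnnc2, Tnnt3, Myl1, Mylpf, Krt4, Krt13 and Krtdap reached the array median only on the SWCNT day 1 arrays. They passed the filter only through the group where they were high, so nothing is read from these muscle and squamous counts. Signs of RNA quality differed too: the beta-actin 3′ signal exceeded the 5′ signal by 2.02 in PF68 and 1.34 in SWCNT on day 1, and by 3.27 and 2.97 on day 7.

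Cxcl10, which recruits CXCR3-bearing T cells and NK cells, was lower with SWCNT on day 1 and was dim in every group other than PF68 day 1. Its level was 3.13 and 3.05 in the PF68 day 1 lungs and -1.64 and -0.90 in the SWCNT day 1 lungs. On day 7 it was -1.28 and -1.76 in PF68 and -1.12 and -0.69 in SWCNT. Only the PF68 day 1 arrays were high, and the other 6 arrays all lay below the array median. The probe set thus passed the filter only through the group where it was high, so a difference was built into its passing. Cxcl10 was lower with SWCNT on day 1 by a log2 difference of -4.36 ± 0.302 (limma, 95% interval -5.11 to -3.62, adjusted p = 0.00484). With no filter on dim signals the adjusted p was 0.00935 (limma). Counting from the array median in place of the dim SWCNT signal, the difference was -3.72, or 13.2-fold. In PF68 lungs it fell by 4.61 ± 0.302 from day 1 to day 7 (limma adjusted p = 0.00383, and 0.0101 with no filter). Fitted on the PF68 arrays alone, that difference was not called. From the array median that difference was also -3.72, or 13.2-fold. This decline involves no SWCNT lung, but it and the day 1 comparison share the PF68 day 1 arrays. Leaving out PF68 day 1 replicate 1 or 2 raised the adjusted p of the day 1 difference to 0.0579 or 0.0546, with differences between -4.73 and -3.99 when any 1 array was left out. On day 7 the SWCNT and PF68 lungs differed by 0.62 ± 0.302 (interval -0.13 to 1.36, limma adjusted p = 0.287). When levels were scaled to the hybridization spikes, that day 7 difference was 1.14 (limma adjusted p = 0.0234). That scaling moved the day 7 median of all genes to 0.549, from 0.0208 as deposited. The SWCNT effect differed between the days by 4.98 ± 0.428 (limma adjusted p = 0.0147), and with a replicate block that adjusted p was 0.0555.

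**Figure D1:**
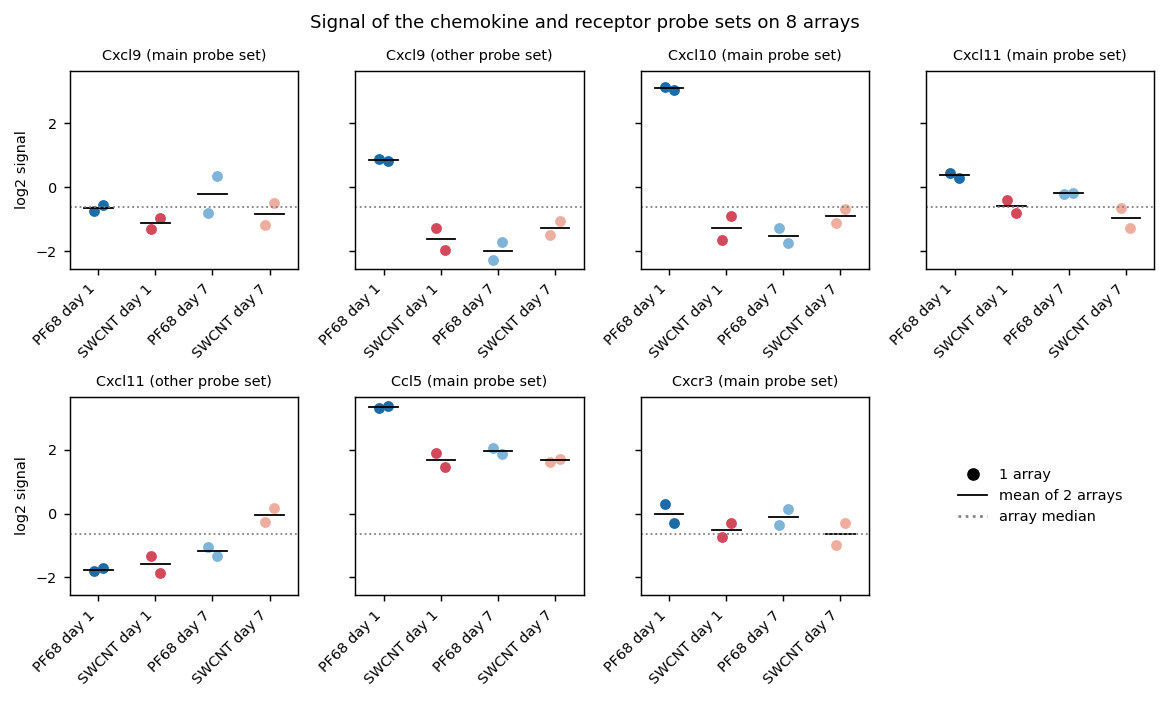
Log2 signal (y axis) of the 7 probe sets of Cxcl9, Cxcl10, Cxcl11, Ccl5 and Cxcr3 on each of the 8 arrays, by group, with points for arrays and lines for group means. For Cxcl10 and Ccl5 the PF68 day 1 arrays stand above the other 6, with levels of 3.05 to 3.13 and 3.30 to 3.36.

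Cxcl9, induced mainly by interferon gamma, gave different readings from its pair of probe sets. On the main one (1456907_at) the level was -0.73 and -0.57 in PF68 day 1, -1.30 and -0.95 in SWCNT day 1, -0.79 and 0.35 in PF68 day 7, and -1.17 and -0.51 in SWCNT day 7. The day 1 groups did not overlap, but the range of all arrays was small, and the day 1 difference was -0.48 ± 0.415 (limma adjusted p = 0.611). On the other (1418652_at), annotated with the gene's RefSeq transcript, it was 0.88 and 0.82 in PF68 day 1, -1.27 and -1.95 in SWCNT day 1, -2.27 and -1.72 in PF68 day 7, and -1.50 and -1.05 in SWCNT day 7. There the PF68 day 1 arrays again stood alone above the rest. They were also the only arrays at or above the array median, so this probe set passed the filter only through them. That probe set was lower with SWCNT on day 1 by -2.46 ± 0.311 (interval -3.23 to -1.69, limma adjusted p = 0.0405 over all probe sets). It fell by 2.84 in PF68 lungs from day 1 to day 7 (limma adjusted p = 0.013). Neither probe set passed on day 7, with differences of -0.62 on the main one and 0.72 on the other. Cxcl9 is therefore not counted among the called genes, and its call depends on the probe set.

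Cxcl11, another CXCR3 ligand, is listed by RefSeq as a transcribed pseudogene in the C57BL/6J reference, and the allele of these ICR mice was not examined. On the main probe set (1419697_at) the level was 0.44 and 0.29 in PF68 day 1, -0.39 and -0.79 in SWCNT day 1, -0.21 and -0.17 in PF68 day 7, and -0.64 and -1.27 in SWCNT day 7. PF68 day 1 was the highest group without overlap, yet the day 1 difference of -0.96 ± 0.244 missed the threshold (limma, interval -1.56 to -0.36, adjusted p = 0.127). The day 7 difference was -0.77 ± 0.244 (limma adjusted p = 0.141). Of the group pairs, SWCNT day 7 against PF68 day 1 passed, at -1.33 ± 0.244 (limma adjusted p = 0.0372). Adjusted over all probe sets, this difference did not pass (limma adjusted p = 0.0526). When any 1 array was left out it ran from -1.64 to -1.01. The other probe set (1419698_at) ran another way: -1.80 and -1.70 in PF68 day 1, -1.32 and -1.86 in SWCNT day 1, -1.04 and -1.32 in PF68 day 7, and -0.26 and 0.17 in SWCNT day 7. It was highest in SWCNT day 7, where both arrays lay above all others and were the only ones above the array median, so it passed the filter only through that group. On that probe set the change from SWCNT day 1 was 1.55 ± 0.248 (limma adjusted p = 0.0209 over all probe sets). The probe sets thus moved in opposite directions between SWCNT day 7 and PF68 day 1, with -1.33 against 1.71, and no direction is given for the gene.

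Ccl5, a chemokine released by T cells, NK cells, platelets and epithelium, was also highest in PF68 day 1, over a smaller range than Cxcl10. Its level was 3.30 and 3.36 in PF68 day 1 and 1.90 and 1.46 in SWCNT day 1. On day 7 it was 2.04 and 1.87 in PF68 and 1.62 and 1.71 in SWCNT. The PF68 day 1 arrays were high without overlap, and the other 6 arrays lay between 1.46 and 2.04. Ccl5 was lower with SWCNT on day 1 by -1.65 ± 0.173 (limma, interval -2.08 to -1.23, adjusted p = 0.0157), or 3.14-fold, and ranked 74 from the lowest of all genes. In PF68 lungs it fell by 1.38 ± 0.173 between the days (limma adjusted p = 0.0101), or 2.6-fold. Fitted on the PF68 arrays alone, that decline was not called. When any 1 array was left out the difference ran from -1.465 to -1.294. The day 7 difference was -0.28 ± 0.173 (limma adjusted p = 0.38), and the difference of the effect between the days was 1.37 ± 0.244 (limma adjusted p = 0.0537). Fitted on the day 1 arrays alone, the day 1 call was lost (limma adjusted p = 0.0946), and without single arrays its adjusted p ran from 0.0337 to 0.134.

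Cxcr3, the receptor of Cxcl9, Cxcl10 and Cxcl11, showed no call in any comparison. Its level was 0.29 and -0.29 in PF68 day 1, -0.74 and -0.30 in SWCNT day 1, -0.36 and 0.14 in PF68 day 7, and -0.99 and -0.28 in SWCNT day 7. The arrays of a group spread as widely as the groups differed. The day 1 difference was -0.52 ± 0.345 (limma adjusted p = 0.492), and the day 7 one -0.53 (limma adjusted p = 0.411). In bulk tissue, fewer cells of a type and less RNA per cell cannot be told apart.

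**Figure D2:**
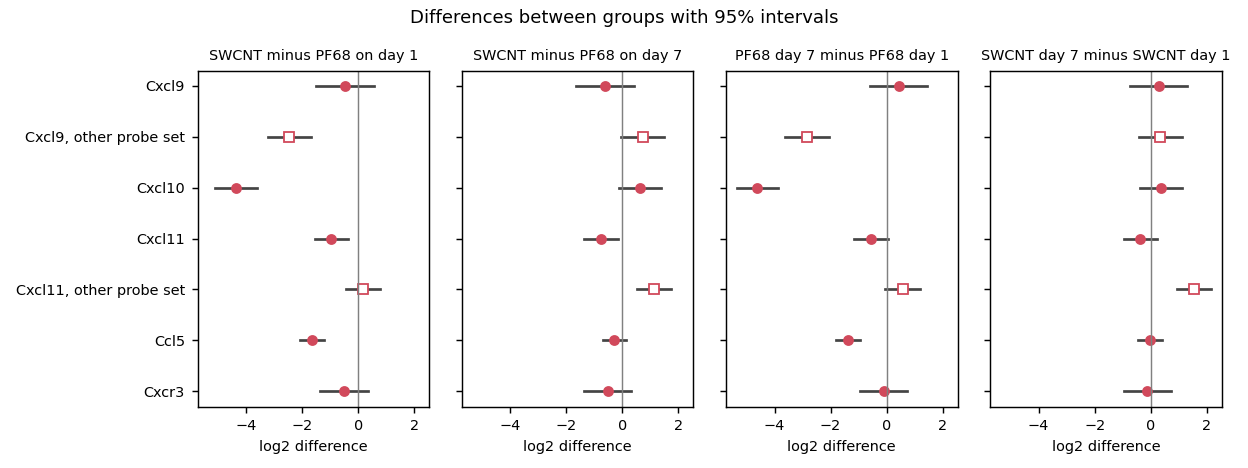
Log2 difference (x axis) of each probe set in 4 comparisons, with 95% intervals; filled circles are the main probe set of a gene and open squares the other. Cxcl10 lies at -4.36 on day 1 and -4.61 between PF68 days, and Cxcl9 and Cxcl11 differ between their probe sets.

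Over the 5 genes, 2 were called lower on day 1, against 1.23% of all genes. One of them, Cxcl10, had passed the filter only through its high group, and the family was selected with the day 1 result known, so nothing is read from these counts. All 5 had non-overlapping groups, lower with SWCNT, where 28.6% of genes had. Their median difference was -0.959, beside -0.0203 over all genes. On day 7 none of the 5 was called by limma, with 1 at an unadjusted p under 0.05, against 2.18% and 23.1% of all genes. Between PF68 days 2 were lower, against 8.86% of genes. Between SWCNT days none was called by limma, with 0 at an unadjusted p under 0.05, against 16.3% and 32.8% of genes. SWCNT day 1 against PF68 day 7 gave 0 calls by limma and 0 at an unadjusted p under 0.05, against 24.7% and 39.3% of genes. SWCNT day 7 against PF68 day 1 gave 3 lower, against 3.65% of genes. The difference between the days was called for 1 gene, higher on day 7, against 1.41% of genes, and 0.924% were called lower. On the main probe sets, the PF68 day 1 arrays entered every comparison that gave a call. When either of them was left out, limma called 0 of the 5 genes in each of these comparisons.

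The order of the 4 groups can be read from these values. For Cxcl10 it was PF68 day 1 (mean 3.09), then SWCNT day 7 (-0.90), SWCNT day 1 (-1.27) and PF68 day 7 (-1.52). None of the pairs among the lower 3 was called. SWCNT day 7 and PF68 day 7, whose arrays did not overlap, differed by the 0.62 given above (interval -0.13 to 1.36). That pair was called under spike scaling, which shifted the median of all genes, and both levels lay below the array median. SWCNT day 1 and PF68 day 7 differed by 0.25 (interval -0.50 to 0.99, limma adjusted p = 0.593), and SWCNT day 7 and day 1 by 0.37 (interval -0.38 to 1.12, limma adjusted p = 0.452). For Ccl5 it was PF68 day 1 (3.33), PF68 day 7 (1.95), SWCNT day 1 (1.68) and SWCNT day 7 (1.67). SWCNT day 1 and PF68 day 7 differed by -0.27 (interval -0.70 to 0.15, limma adjusted p = 0.299), and the SWCNT days by -0.01 (interval -0.44 to 0.42, limma adjusted p = 0.974).

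Of the genes compared, those whose pattern lay nearest to that of Cxcl10 were mostly interferon-induced. Predicted genes (Gm, Rik, LOC or BC names) were left out of the nearest genes. Likeness was the root mean square distance over the 8 arrays between patterns centred on each gene's mean, and Cxcl10 itself deviated from its mean by 1.9. The nearest genes were Iqcf1 at 0.625, Ifit2 at 0.642, Igtp at 0.738, Ifit1 at 0.751 and Ifit3 at 0.813. Ifit1, Ifit2 and Ifit3 bind foreign RNA or act on its translation, and Igtp is an interferon-induced GTPase. To Ccl5 (own deviation 0.698) the nearest were Parp14 at 0.172, Ms4a4b at 0.177 and Csrnp1 at 0.191. To Cxcl11 (0.528) they were Irf9 at 0.208, a subunit of the factor that binds the interferon-stimulated response element, Nfe2 at 0.223 and Phf11d at 0.235. To Cxcl9 (0.476) they were Pde1b at 0.169, Gtf3c2 at 0.172 and Cyp4f18 at 0.181, and to Cxcr3 (0.389) Mfsd6l at 0.163, Tmem190 at 0.163 and Obox5 at 0.172. The other Cxcl9 probe set, examined after its values were seen, lay nearest to Ifit3 at 0.239, Irgm2 at 0.245 and Irgm1 at 0.345. The other Cxcl11 probe set, examined in the same way, lay nearest to Wfdc21 at 0.26, Olr1 at 0.273 and Ube2w at 0.281. Between the 5 genes the smallest distance was that of Cxcl9 and Cxcr3, at 0.342, and the largest that of Cxcl9 and Cxcl10, at 1.95, both on the main probe sets. From Cxcl10 the other Cxcl9 probe set was 0.913 away and the other Cxcl11 probe set 2.29.

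**Figure D3:**
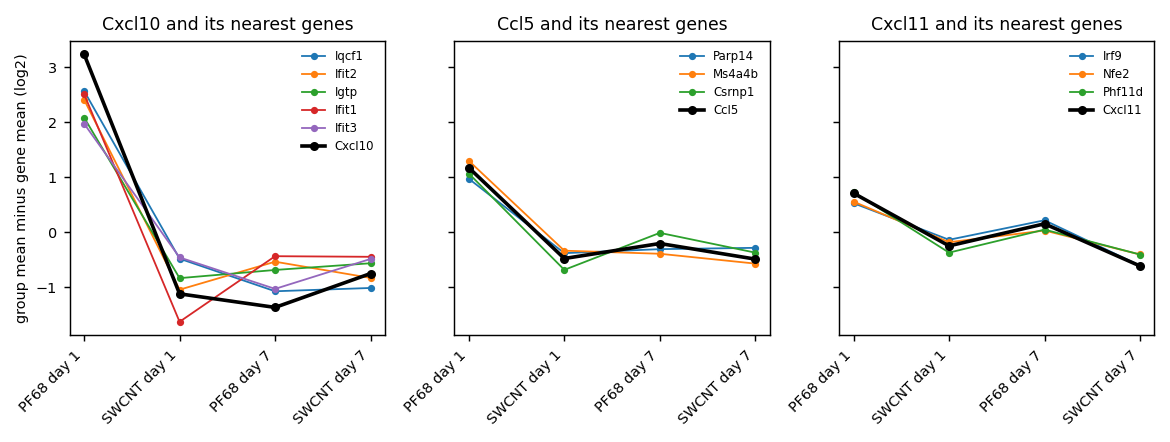
Group mean minus the gene's mean (log2, y axis) in the 4 groups (x axis) for Cxcl10, Ccl5 and Cxcl11, each with its nearest genes by distance, predicted genes left out. All lie highest in PF68 day 1; the genes nearest to Cxcl10 are between 0.625 and 0.813 away.

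Cxcl9, Cxcl10 and Cxcl11 lie close together on chromosome 5, in the order Naaa, Sdad1, Cxcl9, Art3, Cxcl10, Cxcl11, Nup54, Scarb2. None of the other 5 genes of that stretch was called on day 1, with differences of -0.53 for Naaa, 0.02 for Sdad1, -0.02 for Art3, -0.66 for Nup54 and -0.17 for Scarb2 (limma adjusted p 0.0706 to 0.97). Ccl5, on chromosome 11, had Taf15 and Ccl9 beside it, at -0.11 and -0.00.

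Genes of the interferon pathway were also lower with SWCNT on day 1. Their lists were chosen with earlier results of these data known, so the counts describe the pattern and are no independent evidence of it. The day 1 counts and those between PF68 days share the PF68 day 1 arrays. Of 20 tested genes induced mainly by interferon gamma, 14 fell, 0 rose and 6 did not pass, against 1.23% of all genes called lower, with a median of -1.35 beside -0.0203 over all genes. Gbp6 fell by 3.26, Igtp by 2.92, Irgm2 by 2.52 and Iigp1 by 2.44 (limma adjusted p 0.00107 to 0.00756); they are GTPases that act against intracellular pathogens. Of 23 genes induced mainly by type I interferon, 18 fell, 0 rose and 5 did not pass, with a median of -1.71. Ifit1 fell by 4.14, Ifit2 by 3.46, Cmpk2 by 3.21 and Dhx58, a sensor of viral RNA, by 2.76. In PF68 lungs from day 1 to day 7, 16 of the 20 and 17 of the 23 fell, against 8.86% of all genes, with medians of -1.36 and -1.64, beside 0.037 over all genes. On day 7, 0 of the 20 were called with SWCNT by limma, with 6 at an unadjusted p under 0.05 and a median of 0.222. Of the 23, 2 were lower on day 7, against 0.78% of all genes: Oas3 by a log2 difference of -2.72, and Rsad2, the antiviral enzyme viperin, by -0.81. The day 1 counts were 5 and between 7 and 10 when any 1 day 1 array was left out. Those between PF68 days were 4 and 6 without PF68 day 1 replicate 1, and 0 and 0 without replicate 2. Leaving out any 1 array brought the day 7 count of 2 to 0, and with spike scaling, which moved the median of all genes on day 7 to 0.549 and called 5893 of 13854, 13 of the 20 and 8 of the 23 were called.

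Of 15 tested receptors and signal transducers, 2 were lower on day 1, against 1.23% of all genes, Irf7 (-2.47), which drives interferon production and is also in the type I list, and Irf1 (-0.95), and 13 did not pass. On day 7, Ifnar2, a chain of the type I interferon receptor, was higher by 0.80. In PF68 lungs 5 of 15 fell between the days, against 8.86% of all genes, among them Irf7 by 2.17, Stat2 by 1.77, Jak1 by 1.47 and Ifnar2 by 1.18. Of 7 feedback inhibitors 1 was lower on day 1, Usp18, which blocks signalling at the type I interferon receptor, at -2.15, and limma called 0 on day 7, with 0 at an unadjusted p under 0.05. In PF68 lungs Usp18 and Pias1 fell by 2.15 and 0.52 and Ptpn2 rose by 0.71. Of 16 NF-kappaB subunits and targets 1 was lower on day 1, the cytokine Il6, at -0.92 (limma adjusted p = 0.0499), and 0 were called on day 7 by limma, with 4 at an unadjusted p under 0.05. Il6 fell by 1.95 and Icam1 by 0.73 between PF68 days. Ifnar2 was not called on day 7 without any 1 array, and on day 1 only 1 of the 15 transducers was called without any 1 array.

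Of 10 inducing cytokines with a probe set, 3 lay below the array median on all 8 arrays, while Il18, which promotes interferon gamma production, was at 2.59 to 3.49. Of the 10, 5 were tested, and 0 were called on day 1 by limma, with 3 at an unadjusted p under 0.05. Nothing is read from that unadjusted count, as the day 1 share over all genes is not given here. Ifna2, a type I interferon, was -0.15 and 0.06 in PF68 day 1 and -1.95 and -1.99 in SWCNT day 1, a difference of -1.92 ± 0.392 (limma adjusted p = 0.0816). Ifng, encoding interferon gamma, lay below the array median on all 8 arrays: -0.75 and -0.97 in PF68 day 1, -1.45 and -2.58 in SWCNT day 1, -2.42 and -1.30 in PF68 day 7 and -2.28 and -1.87 in SWCNT day 7. Between PF68 days Il15 fell by 1.39, while Ebi3 rose by 0.50. Among 10 other ligands and receptors, Ccl8, which acts on several of the same receptors as Ccl5, was lower on day 1 by -1.16 (limma adjusted p = 0.0224) and higher on day 7 by 0.99. Ccl3, a ligand of CCR1, was higher with SWCNT on day 7 by 1.77 (limma adjusted p = 0.0246), so 2 of the 10 were higher on day 7, against 1.4% of all genes. Without any 1 array no gene of this list was called on day 7 by limma, and Ccl8 lost its day 1 call without any 1 day 1 array or SWCNT day 7 array. Between PF68 days 5 of these 10 fell, against 8.86% of all genes, with Cxcl13 at -1.62 and Ccl8 at -1.58.

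**Figure D4:**
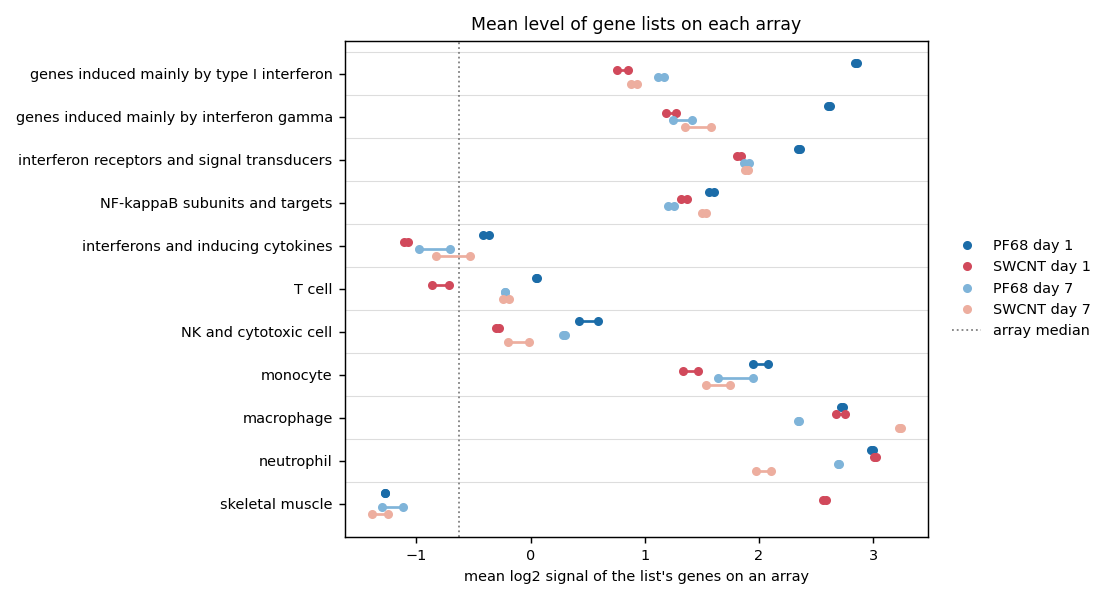
Mean log2 signal (x axis) of each gene list (rows) on the 8 arrays; points are arrays, coloured by group and joined within a group. The interferon-induced lists are highest in PF68 day 1, and the skeletal muscle list is high only in SWCNT day 1, at 2.56 to 2.58.

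Mean levels of marker lists for T cells, NK cells and monocytes were lower in SWCNT day 1 than in PF68 day 1, though few single markers were called. The mean level of 11 T cell markers was 0.044 to 0.059 in PF68 day 1, -0.861 to -0.715 in SWCNT day 1, -0.226 to -0.223 in PF68 day 7 and -0.243 to -0.186 in SWCNT day 7. Cd3d, a T cell receptor subunit, was 1.24 and 1.47 in PF68 day 1, -0.39 and -0.13 in SWCNT day 1, 1.15 and 1.47 in PF68 day 7 and 1.15 and 0.92 in SWCNT day 7. It was the 1 of 10 tested T cell markers called lower on day 1, at -1.61 (limma adjusted p = 0.0185), and the list ranged up to 0.04 for Cd8a. Between PF68 days 1 of the 10 was called, against 8.86% of all genes called lower. It was Cd8b1, which fell by 1.66 (limma adjusted p = 0.00978), while Cd3d was at -0.04 (limma adjusted p = 0.89). The NK list ran from 0.422 to 0.593 in PF68 day 1, -0.301 to -0.275 in SWCNT day 1, 0.282 to 0.303 in PF68 day 7 and -0.199 to -0.016 in SWCNT day 7, and 1 of 10 was called on day 1, Gzma, lower by -1.07. Klre1 and Eomes were at 0.76 and 0.47 on day 1 without passing (limma adjusted p = 0.228 and 0.792). In the monocyte list, at 1.94 to 2.08 in PF68 day 1 and 1.33 to 1.46 in SWCNT day 1, 2 of 6 tested genes, Ms4a4c and Plac8, were lower by -1.86 and -1.34. The other 4 did not pass, with differences up to -0.18 for Csf1r. Of all genes, 1.23% were called lower on day 1. The B cell list also had a lower mean, 0.103 in SWCNT day 1 against 0.367 in PF68 day 1. Limma called 0 of its 6 tested genes, with 2 at an unadjusted p under 0.05. The macrophage list had means of 2.67 to 2.75 on the day 1 arrays, with 0 of 7 called by limma and 3 at an unadjusted p under 0.05. The day 1 share of all genes at such a p is not given here, so nothing is read from the unadjusted B cell and macrophage counts. The neutrophil list had means of 2.98 to 3.02, with members called both ways, Ngp at -1.88 and Ltf at 1.06. The part of T cell, NK and monocyte RNA in the day 1 differences was not tested. The skeletal muscle list lay at -1.27 in PF68 day 1, between -1.30 and -1.12 in PF68 day 7 and between -1.39 and -1.25 in SWCNT day 7. The difference of the means of SWCNT day 7 and PF68 day 1 was -3.99 for Cxcl10 (limma adjusted p = 0.00677). These means include no SWCNT day 1 array, but the p-value uses the spread of all 8 arrays. Fitted on only the arrays compared, Cxcl10 was not called. That comparison crosses day and treatment and again uses the PF68 day 1 arrays. The part of other tissue in the day 1 differences was not tested.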

How the data were processed

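RNA from 8 lung samples was hybridized to single-colour Affymetrix arrays. The authors deposited 1 value per probe set and array; these log2 signals, as they are read here, were made by the authors with RMA, per the submitters' processing notes. No version or setting is given there, and no source states the log base or an offset. The sorted values were identical on all arrays (largest SD 0). If the base were another, differences would change by 1 factor but tests would not. The values ranged from -5.88 to 8.31.

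Of 45101 probe sets, 64 controls and 8 with a missing value were left out; 34939 had 1 symbol in the platform annotation, for 18191 genes. Probe sets had to reach the median of an array on 2 or more of the 8 (27368; 13854 genes). A limma 3.58.1 model (lmFit, eBayes; R 4.3.3) with 4 residual and 1.81 prior degrees of freedom of the 4 group means used all arrays, with Benjamini-Hochberg adjustment over all genes and a threshold of 0.05; ± is the standard error. An exact two-sided permutation test of 2 against 2 cannot go below p = 0.333. The procedure was tested on simulated data. Array numbers did not pair the samples (correlations of deviations -0.00605 to 0.0114 over 6 pairs of groups).

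The members, lists and tests were chosen with earlier results of these data known. Named genes were the members, the 5 genes nearest to Cxcl10 and 3 nearest to each other member, up to 4 called genes with the largest differences of each list, or 2 with none called. Genes of the chromosomal stretch, Ifng, Il18, Cd8a, Klre1 and Eomes were added beyond that rule, after their values were seen. Some genes were not analysed here. Figures were drawn with matplotlib 3.10.9.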

Additional observations from a re-analysis of the deposited data

Results flagged for a closer look

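The SWCNT effect (SWCNT minus PF68) differed between day 7 and day 1 for Cxcl10 by 4.98 log2 units, by the interaction term of the limma fit, from -4.36 on day 1 to 0.62 on day 7. Of the tested genes induced mainly by interferon gamma, 10 of 20 had this term called above 0, and of the type I genes 17 of 23. Over all genes the share was 1.41%. Only a selection of the genes that passed is named here, and others of the same lists passed as well. The same term passed for the 21 further genes named here, from the interferon, chemokine, T cell, NK and monocyte lists or named for likeness. On that scale it was 4.13 for Ifit1, 3.47 for Gbp6, 3.17 for Irgm2, 3.16 for Ifit2, 3.05 for Igtp, 2.98 for Ifit3, 2.76 for Cmpk2, 2.75 for Dhx58, 2.46 for Irgm1 and 2.37 for Iigp1. It was 2.16 for Usp18, 2.16 for Ccl8, 2.15 for Irf7, 1.92 for Ccl3, 1.8 for Rsad2, 1.46 for Ms4a4b, 1.38 for Parp14, 1.36 for Oasl2, 1.24 for Ifnar2, 1.19 for Plac8 and 1.01 for Gzma. These terms are above 0 and share the PF68 day 1 arrays. Over all genes the term was called above 0 for 196 and below 0 for 128, or 0.924%. Those below 0 included 3 of 3 fat and 2 of 7 neutrophil genes tested. The term was also called below 0 for 8 of 9 skeletal muscle and 2 of 5 squamous epithelial genes tested. Several of those muscle and squamous genes, as given above, passed the filter only through the SWCNT day 1 arrays. Nothing is read from the muscle and squamous counts. Ccl3 was at -0.15 on day 1 and 1.77 on day 7, and Ifnar2 at -0.44 and 0.80, while Ccl8 was lower on day 1 (-1.16) and higher on day 7 (0.99).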

How the results depend on the processing

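Over 766 recomputed differences of the 5 genes, 668 kept their direction and their side of the threshold, 41 lost the call, 12 gained one and 45 changed sign. The sign changed for Cxcl10 once, in SWCNT day 1 against PF68 day 7 without SWCNT day 1 replicate 2 (-0.12), and never in the day 1 or PF68 comparison.

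For the day 1 count (2 genes), 1 was called with a filter of at least 4 of 8 arrays, which removes Cxcl10 from the test, 1 with only the arrays compared, and 0 to 2 when 1 array was left out (0 without either PF68 day 1 replicate, 1 without SWCNT day 1 replicate 2). Day 7 gave 1 with spike scaling, which moved the day 7 median of all genes to 0.549 and called many of them, as given above. The difference between the days (1 gene) gave 2 with spike scaling, with dim values raised to the array median, with trend and robust variances, and at an adjusted p under 0.1, and 0 to 1 without single arrays (0 without any of 6). With a replicate block, it gave 0. PF68 day 7 against day 1 (2) gave 1 with the stricter filter, 0 with only the arrays compared and 0 to 2 without single arrays. SWCNT day 7 against day 1 (0) gave 1 with the probe set of highest variance. SWCNT day 1 against PF68 day 7 (0) gave 0 to 1, and SWCNT day 7 against PF68 day 1 (3) gave 0 with only the arrays compared and 0 to 2 without single arrays. The cause was not tested, except that fewer arrays leave fewer degrees of freedom. Over all genes on day 1, 300 calls became 102 with the replicate block, 737 with spike scaling, 57 with only the arrays compared and between 30 and 189 without single arrays; on day 7, 302 became 15 with the block. The block is reported although the numbers do not pair the samples.

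Sign changes follow, on the log2 scale. With the probe set of highest variance, Cxcl11 was 0.16 on day 1, 1.14 on day 7, 0.57 between PF68 days, 1.55 between SWCNT days and 1.71 for SWCNT day 7 against PF68 day 1; Cxcl9 was 0.72 on day 7, 3.18 for the difference between days, -2.84 between PF68 days and 0.38 for SWCNT day 1 against PF68 day 7. With the mean of probe sets, Cxcl11 was 0.18 on day 7, 0.0076 between PF68 days, 0.59 between SWCNT days and 0.19 against PF68 day 1; Cxcl9 was 0.052 on day 7, 1.52 for the difference between days and -1.21 between PF68 days. Spike scaling shifts the median of all genes to -0.238 on day 1, 0.549 on day 7 and -0.558 between PF68 days; it gave Ccl5 0.24 on day 7, 0.14 between SWCNT days and 0.10 for SWCNT day 1 against PF68 day 7, Cxcl9 0.60 for the difference between days and -0.17 between PF68 days, and Cxcr3 0.74 for the difference between days and 0.030 between SWCNT days. With dim values raised, Cxcr3 was 0.12 for the difference between days and 0.0072 between SWCNT days, and Cxcl9 0.030 for SWCNT day 7 against PF68 day 1. Without single arrays, the difference between days ran from -0.72 to 0.43 for Cxcl9, -0.13 to 0.51 for Cxcl11 and -0.37 to 0.34 for Cxcr3. PF68 days ran from -0.14 to 1.00 for Cxcl9 and -0.40 to 0.18 for Cxcr3, and SWCNT days from -0.046 to 0.62 for Cxcl9, -0.23 to 0.21 for Ccl5 and -0.48 to 0.24 for Cxcr3. SWCNT day 7 against PF68 day 1 ran from -0.52 to 0.14 for Cxcl9, and SWCNT day 1 against PF68 day 7 from -0.12 to 0.61 for Cxcl10. Leaving out both PF68 day 1 arrays, an alternative added after seeing the data, left 0 of the 5 genes called in the 3 comparisons without them; only the arrays compared was not run for the difference between days, which needs all groups. With 2 arrays a group, precision is limited by their number, and values below the array median are dim.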
